A study of Mus musculus with 12 samples.

Results

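Matrix metalloproteinases (MMPs) and the tissue inhibitors of metalloproteinases (TIMPs) were followed in mouse white adipose tissue through 10 genes: the inhibitor genes Timp1, Timp2, Timp3 and Timp4 and the protease genes Mmp2, Mmp3, Mmp9, Mmp13, Mmp14 and Mmp19. All 10 were found among the 19937 genes with a probe set of their own, each through 1 row of the deposited table. The tissue came from male mice aged 18 weeks, which were wild type (WT) or Ahnak knockout (KO) animals. Ahnak encodes a very large scaffold protein at the plasma membrane. For 12 weeks each genotype ate regular chow or a diet rich in fat (HFD; 60% fat, 20% protein, 20% carbohydrate), which gave 4 groups of 3 arrays. The sources used here do not give the strain, the knocked-out part of Ahnak, the fat depot or whether each array stands for 1 animal, so a p-value here reflects the spread among these arrays, which may be technical.

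MMPs are zinc-dependent proteases that cut collagens, laminins, proteoglycans and other proteins of the extracellular matrix. They are made as inactive precursors and are held in check by the TIMPs, which bind the active site. When fat tissue expands, the matrix around adipocytes is cut and rebuilt, and in obese fat much of the protease and inhibitor supply comes from stromal cells and macrophages as well as from adipocytes.

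For 7 of the 10 genes RefSeq gave a promoter sequence (build GRCm38.p6). In the 250 bases upstream of the start, 2 of the 7, Mmp3 and Mmp13, held the letters TGANTCA, the core of the site bound by the transcription factor AP-1 and long known from protease promoters. These letters read the same on both strands, and 6.75% of 32851 promoter windows of that length held them. The promoters of Mmp3 and Mmp13, which both rose on HFD in WT, are shown with that match in capitals, beside that of Timp1, which rose as well and holds no match in this window.
Mmp3 (chr9:7445572-7445821, plus strand): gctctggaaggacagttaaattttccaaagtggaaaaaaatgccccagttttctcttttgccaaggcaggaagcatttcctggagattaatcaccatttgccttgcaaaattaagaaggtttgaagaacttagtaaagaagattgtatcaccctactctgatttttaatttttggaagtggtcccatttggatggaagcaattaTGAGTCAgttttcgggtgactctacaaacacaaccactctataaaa
Mmp13 (chr9:7272264-7272513, plus strand): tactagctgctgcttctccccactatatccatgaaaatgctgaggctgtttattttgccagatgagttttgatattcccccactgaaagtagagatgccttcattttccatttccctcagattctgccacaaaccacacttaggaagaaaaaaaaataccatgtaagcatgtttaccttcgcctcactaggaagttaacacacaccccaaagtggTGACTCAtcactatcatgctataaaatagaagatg
Timp1 (chrX:20869916-20870165, plus strand): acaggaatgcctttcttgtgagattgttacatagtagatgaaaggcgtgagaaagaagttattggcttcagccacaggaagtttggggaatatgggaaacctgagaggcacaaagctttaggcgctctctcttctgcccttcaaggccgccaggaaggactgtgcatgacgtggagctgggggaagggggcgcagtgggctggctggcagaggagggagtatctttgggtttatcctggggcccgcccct
The match lay 46 to 40 bases before the start in Mmp3 and 35 to 29 bases before it in Mmp13. Both promoters also held TATAAA (7 to 2 and 16 to 11 bases before the start), a TATA box sequence found on either strand in 12.4% of windows. The windows of Timp1, Timp2, Timp3 and Mmp14 held none of these letters but the GC box GGGCGG on 1 or the other strand, present in 32.7% of windows, and that of Timp4 held none of the 3 motifs. A match describes the letters only.

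Arrays of 1 group correlated across genes at r = 0.985 to 0.996, and genes are not independent replicates. Ahnak was lower on every KO array (9.27 to 9.58 on the log2 scale) than on every WT array (9.68 to 10.27). Its difference passed on HFD (-0.52 ± 0.13, adjusted p = 0.0207) and did not on chow (-0.69 ± 0.13, adjusted p = 0.379), and on HFD it no longer passed when replicate 3 of WT HFD or replicate 2 or 3 of KO HFD was left out (adjusted p up to 0.074). The adipocyte markers Fabp4 and Adipoq had mean log2 values of 13.16 and 13.11 over the 12 arrays. The 3 WT arrays on HFD stood apart from each other: on the first principal component (58.1% of the variance) replicate 1 lay at 26.4, replicate 3 at 47.2 and replicate 2 at 57.8, against -31.8 to 11.4 for the other 9 arrays. Of the 10 genes, 9 had their widest standard deviation (SD) in WT on HFD, as had 31.9% of all genes. Calls that rest on these arrays are therefore given with the range or the losses when 1 array is left out.

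Levels are log2 intensities as deposited, and differences are log2 differences ± the standard error (SE) of a limma fit to all 12 arrays, with n = 3 arrays a group. The threshold for passing was an adjusted p of 0.05 (Benjamini-Hochberg, over all 19937 genes). Levels of different genes are read by different probes and are not compared.

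**Figure D1:**
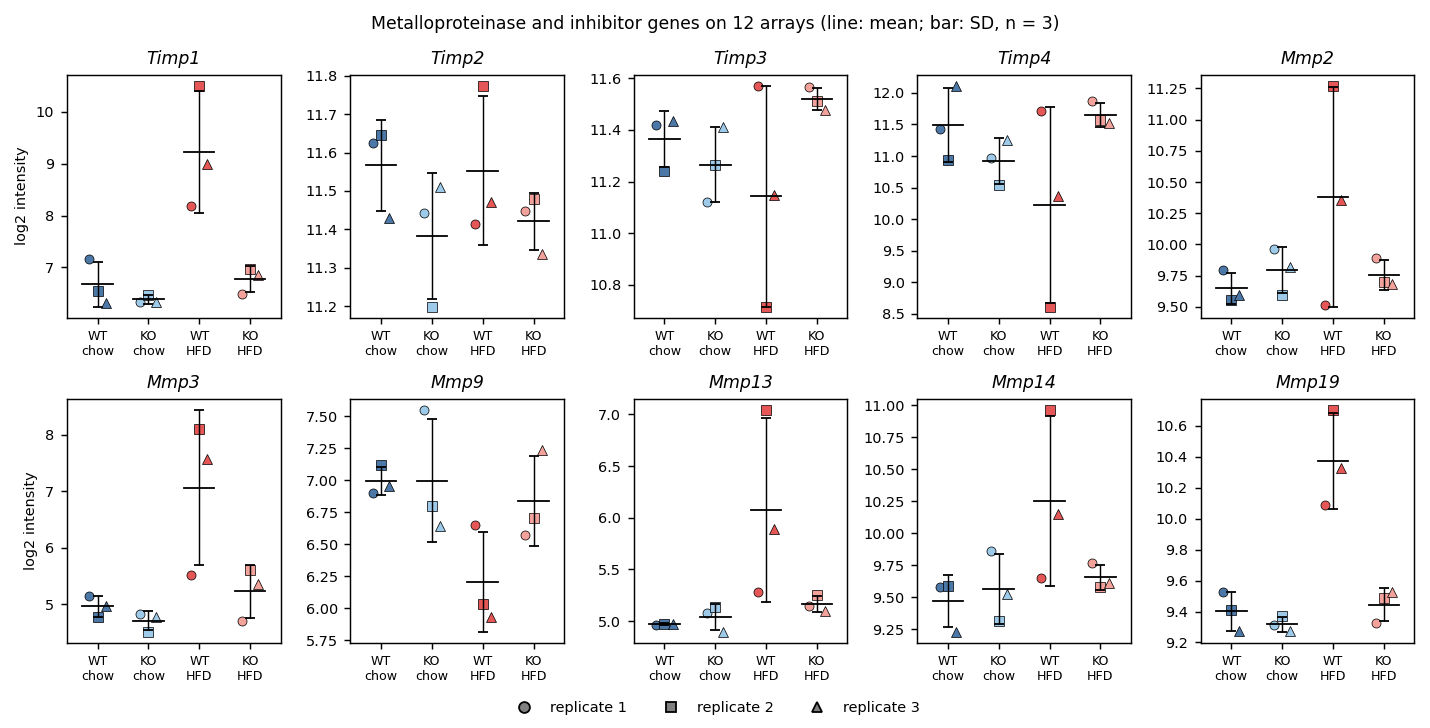
Log2 intensity (y axis, a separate scale for each gene) of the 10 genes on the 12 arrays, by group (x axis). Symbols mark the replicate number, lines the mean and bars the SD of 3 arrays; in WT on HFD, replicate 2 was the highest array for Timp1, Timp2, Mmp2, Mmp3, Mmp13, Mmp14 and Mmp19 and the lowest for Timp3 and Timp4.

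Timp1 encodes a secreted inhibitor that is readily induced by cytokines and growth factors. Its log2 intensity was 7.16, 6.55 and 6.32 on the WT chow arrays, 6.34, 6.48 and 6.33 on the KO chow arrays, 8.19, 10.50 and 8.99 on the WT HFD arrays and 6.49, 6.98 and 6.85 on the KO HFD arrays (replicates 1 to 3). Every WT HFD array lay above all 9 others. The means were 6.38 ± 0.08 (SD) in KO on chow, 6.68 ± 0.44 in WT on chow, 6.77 ± 0.26 in KO on HFD and 9.23 ± 1.17 in WT on HFD, and WT chow overlapped both KO groups.

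Timp4 encodes the inhibitor with the most restricted expression, which in fat is made by adipocytes. It lay at 11.42, 10.94 and 12.11 in WT on chow, 10.97, 10.54 and 11.25 for KO on chow, 11.71, 8.61 and 10.37 in WT on HFD and 11.87, 11.57 and 11.52 in KO on HFD. WT HFD replicate 2 was the lowest of all 12 arrays and replicate 1 the third highest, so that the WT HFD group overlapped each of the others. Its mean was 10.23 ± 1.55 (SD) there, 10.92 ± 0.36 in KO on chow, 11.49 ± 0.59 in WT on chow and 11.65 ± 0.19 in KO on HFD.

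Timp3 encodes an inhibitor that binds to the matrix and also blocks the sheddase ADAM17. Its log2 intensity was 11.42, 11.24 and 11.43 in WT on chow, 11.12, 11.26 and 11.41 for KO on chow, 11.57, 10.71 and 11.15 in WT on HFD and 11.57, 11.51 and 11.48 in KO on HFD. The KO HFD arrays lay above both chow groups and overlapped WT on HFD through replicate 1. Timp2, which inhibits MMPs and also takes part in the activation of the MMP2 precursor at the cell surface, ranged only from 11.20 to 11.77 over the 12 arrays, with all 4 groups overlapping (means 11.57 and 11.38 in WT and KO on chow, 11.55 and 11.42 on HFD).

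Among the proteases, Mmp3 encodes stromelysin, which cuts proteoglycans and laminins and activates other MMP precursors. It lay at 5.14, 4.78 and 4.96 in WT on chow, 4.83, 4.51 and 4.77 for KO on chow, 5.51, 8.11 and 7.57 in WT on HFD and 4.71, 5.61 and 5.35 in KO on HFD. WT HFD replicates 2 and 3 stood above all other arrays, while replicate 1 lay below KO HFD replicate 2. The group means were 4.96 ± 0.18 (SD), 4.70 ± 0.17, 7.06 ± 1.37 and 5.22 ± 0.47 in that order.

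Mmp13 encodes a collagenase that cuts fibrillar collagen. It lay within 4.90 to 5.14 on the 6 chow arrays and 5.10 to 5.25 in KO on HFD, against 5.28, 7.04 and 5.89 in WT on HFD. The lowest WT HFD array was thus hardly above the highest KO HFD array. Mmp19 encodes a secreted MMP that cuts basement membrane proteins. It lay within 9.27 to 9.53 on the 6 chow arrays and at 9.32, 9.49 and 9.52 in KO on HFD, against 10.09, 10.70 and 10.33 in WT on HFD. Here all 3 WT HFD arrays stood clear of the other 9, and the SD in WT on HFD was 0.31.

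Mmp14 encodes a membrane-bound MMP that cuts collagen at the cell surface and activates the MMP2 precursor. It lay at 9.65, 10.96 and 10.15 in WT on HFD, against 9.58 to 9.76 in KO on HFD, 9.23 to 9.59 in WT on chow and 9.31 to 9.86 in KO on chow. Mmp2 encodes gelatinase A. It lay at 9.51, 11.27 and 10.35 in WT on HFD, 9.68 to 9.89 in KO on HFD, 9.56 to 9.79 in WT on chow and 9.60 to 9.96 in KO on chow. In both genes replicates 2 and 3 of WT on HFD were the highest arrays, and replicate 1 lay inside the range of KO on HFD (Mmp14) or below it (Mmp2).

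Mmp9 encodes gelatinase B, a product of neutrophils and macrophages among other cells, and moved the other way. It lay at 6.65, 6.04 and 5.94 in WT on HFD, below the 3 WT chow arrays (6.90 to 7.12). KO on chow held 6.64 to 7.55 and KO on HFD 6.57 to 7.24, both overlapping WT on HFD through its replicate 1.

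The comparison of KO with WT on HFD asks whether the loss of Ahnak changes these genes under the dietary load. Of the 10 genes, 3 were lower in KO, Timp1, Mmp3 and Mmp19, 0 were higher and 7 did not pass. Over all genes 13.5% passed, 6.85% lower and 6.65% higher. The median difference of the 10 genes was -0.61, against 0.02 over all genes. Timp1 was lower by a factor of 5.48 (-2.46 ± 0.45, adjusted p = 0.00788), Mmp3 by 3.57 (-1.84 ± 0.51, adjusted p = 0.0364) and Mmp19 by 1.90 (-0.93 ± 0.13, adjusted p = 0.00444). The arrays of KO and WT did not overlap for 3 of the 10, Timp1, Mmp13 and Mmp19, where 30.9% of all genes did not, so the count alone does not set the 10 apart.

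Among the 7 that did not pass, the other collagen-cutting and gelatin-cutting proteases had negative differences in KO except Mmp9. Mmp13 had -0.91 ± 0.32 (adjusted p = 0.0838), Mmp14 -0.60 ± 0.27 (0.172) and Mmp2 -0.62 ± 0.32 (0.249), while Mmp9 had 0.63 ± 0.26 (0.135). Of the other inhibitors Timp4 had 1.43 ± 0.59 (adjusted p = 0.146), Timp3 0.38 ± 0.17 (0.18) and Timp2 -0.13 ± 0.11 (0.527). Timp1 therefore stood alone among the 4 inhibitor genes in passing the test, and 2 of 6 protease genes passed. The 95% interval for Timp2 ran from -0.379 to 0.115, whereas that for Timp4 ran from 0.12 to 2.73.

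**Figure D2:**
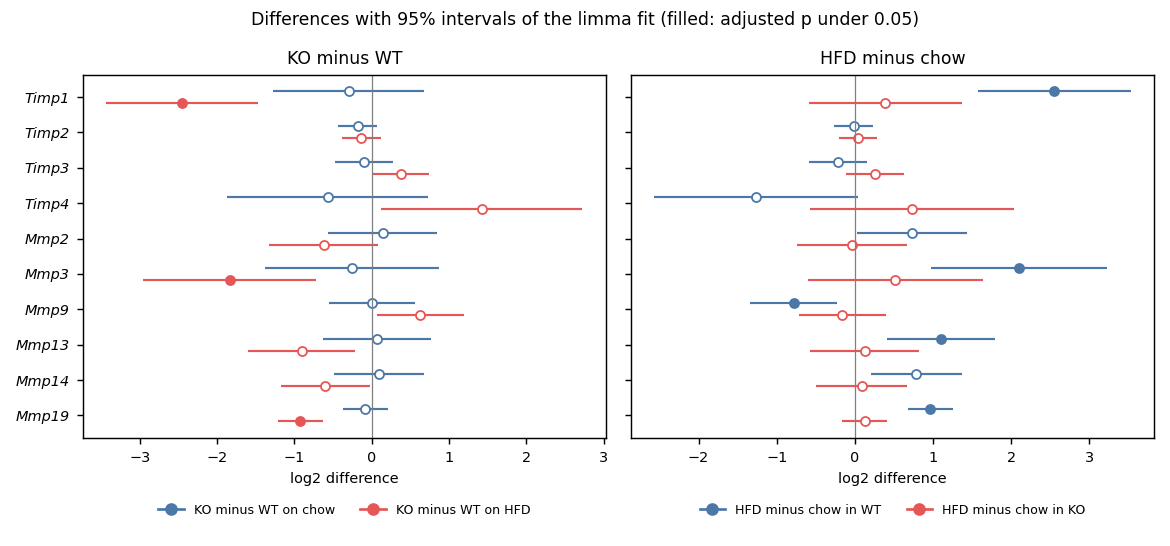
Log2 differences (x axis) of the 10 genes (y axis) between genotypes on each diet (left) and between diets in each genotype (right), with 95% intervals of the limma fit; filled points passed. Filled points appear only for KO against WT on HFD (Timp1, Mmp3, Mmp19) and for HFD against chow in WT (Timp1, Mmp3, Mmp9, Mmp13, Mmp19), comparisons that share the WT HFD arrays.

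These calls rest on a spread shared over all 12 arrays. With only the 6 arrays compared in the fit, 0 of the 10 genes passed by limma, as 4 of 19937 genes did, at an adjusted p of 0.066 for Timp1, 0.057 for Mmp19 and 0.14 for Mmp3. Timp1 and Mmp19 passed with any 1 of the 12 arrays left out (differences of -2.97 to -1.82 and -1.07 to -0.76, highest adjusted p 0.039 and 0.027). Mmp3 lost its call without 9 of the 12 arrays, at an adjusted p of up to 0.13, and kept it without WT HFD replicate 1, WT chow replicate 2 or KO chow replicate 2. Without WT HFD replicate 1, 9 of the 10 genes passed, all but Timp2, where 19.7% of all genes did. Timp4 then had 2.16 ± 0.46 (adjusted p = 0.007), Timp3 0.59 ± 0.13 (0.0085), Mmp13 -1.30 ± 0.24 (0.0036), Mmp2 -1.06 ± 0.22 (0.0063), Mmp14 -0.90 ± 0.22 (0.016) and Mmp9 0.85 ± 0.25 (0.036). Without WT HFD replicate 2 the same differences shrank to 0.62 for Timp4, 0.16 for Timp3, -0.42 for Mmp13, -0.18 for Mmp2 and -0.25 for Mmp14, and none of these passed.

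**Figure D3:**
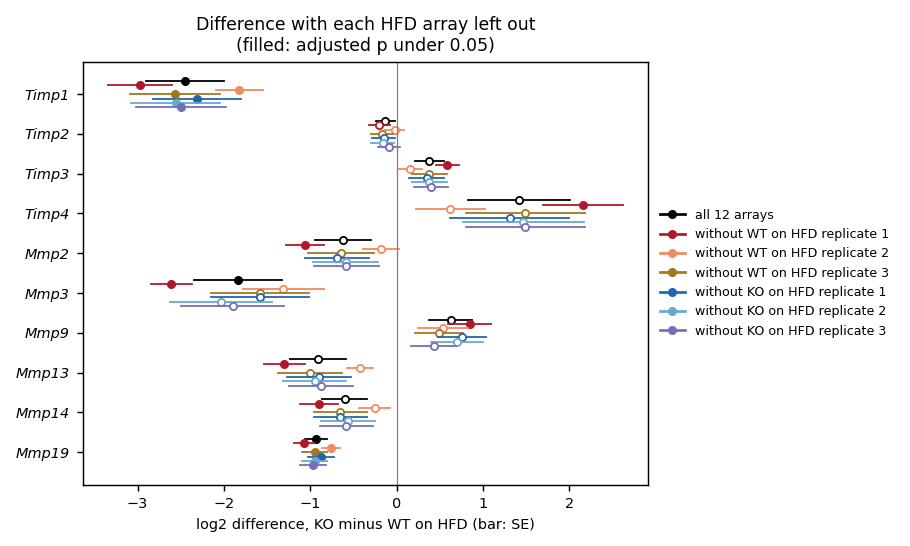
Log2 difference of KO against WT on HFD (x axis, bars are the SE) for the 10 genes (y axis) with all 12 arrays and with each of the 6 HFD arrays left out; filled points passed. Timp1 and Mmp19 stayed filled throughout, while without WT HFD replicate 1 all genes but Timp2 were filled.

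On chow the genotypes could not be told apart at these genes. Limma called 0 of 10, and 0 of all genes (0%). At an unadjusted p under 0.05 the count was 0 of 10, against 5.6% of all genes. KO and WT arrays overlapped for all 10, where 11.5% of all genes did not overlap. The differences ran from -0.57 ± 0.59 for Timp4 to 0.14 ± 0.32 for Mmp2, with adjusted p of 0.929 or more. Timp1 had -0.30 ± 0.45, Mmp3 -0.26 ± 0.51, Mmp13 0.07 ± 0.32, Mmp14 0.10 ± 0.27, Mmp9 0.00 ± 0.26, Mmp19 -0.09 ± 0.13, Timp2 -0.18 ± 0.11 and Timp3 -0.10 ± 0.17. The intervals were wide for some: that of Timp1 ran from -1.27 to 0.68, while that of Mmp19 ran from -0.38 to 0.21. Their width reflects the spread of all 4 groups, WT on HFD included, and not that of the chow arrays alone. With only the chow arrays in the fit the SE was 0.2 for Timp1, 0.12 for Mmp3 and 0.08 for Mmp13, and stayed at 0.11 for Timp2. In that fit 0 of 10 passed as well.

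In WT the high fat diet raised 1 inhibitor gene and 3 protease genes and lowered 1 protease gene. Of the 10 genes, 4 rose, 1 fell and 5 did not pass, where 24.1% of all genes passed, 11.8% up and 12.3% down. Timp1 rose by a factor of 5.86 (2.55 ± 0.45, adjusted p = 0.00291), Mmp3 by 4.29 (2.10 ± 0.51, 0.0126), Mmp13 by 2.15 (1.10 ± 0.32, 0.027) and Mmp19 by 1.96 (0.97 ± 0.13, 0.00118). Mmp9 fell by 0.78 ± 0.26 (adjusted p = 0.0445). Mmp14 had 0.79 ± 0.27 (adjusted p = 0.0516), Mmp2 0.73 ± 0.32 (0.127) and Timp4 -1.26 ± 0.59 (0.155), while Timp3 and Timp2 had -0.22 ± 0.17 and -0.01 ± 0.11. Diet groups did not overlap for 6 of the 10 in WT (38.8% of all genes): the 5 that passed and Mmp14.

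Timp1 and Mmp19 passed in this comparison with any 1 array left out. Mmp3 lost its call without WT HFD replicate 3 (1.85, adjusted p = 0.054), and Mmp13 without that array or any 1 WT chow array (0.053 to 0.068). The Mmp13 rise was 0.62 without WT HFD replicate 2 and 1.5 without replicate 1. Mmp9 lost its call without any WT chow array, WT HFD replicate 2 or 3, KO chow replicate 2 or KO HFD replicate 2 (adjusted p up to 0.16), and with the replicate number as a block (0.061). Without WT HFD replicate 1, 9 of the 10 passed, where 26.5% of all genes did. With only the 6 WT arrays in the fit Timp1, Mmp9 and Mmp19 passed, where 16.9% of all genes did. This comparison and that of KO with WT on HFD share the WT HFD arrays, so their opposite signs are not independent.

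In KO the same diet moved none of the 10 past the threshold. Limma called 0 of 10, where 6.34% of all genes passed, 2.8% higher and 3.54% lower. At an unadjusted p under 0.05 the count was also 0 of 10, against 22.8% of all genes. The SE pools all 4 groups, and 9 of the 10 genes had their widest SD in WT on HFD, a group not compared here. For Timp1 the SD was 1.17 in WT on HFD, 0.08 in KO on chow and 0.26 in KO on HFD. These counts therefore do not show that the diet left the 10 genes unmoved in KO. With only the KO arrays in the fit 0 of 10 passed as well, where 2.93% of all genes did. Diet groups did not overlap for Timp1, Timp3 and Timp4, all higher on HFD (28.8% of all genes did not overlap). Timp1 had 0.39 ± 0.45, Timp4 0.73 ± 0.59, Mmp3 0.52 ± 0.51 and Timp3 0.25 ± 0.17, and the other 6 lay between -0.16 (Mmp9) and 0.13 (Mmp19), with adjusted p of 0.415 or more for all 10.

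Whether the genotype difference itself differed between the diets was tested as an interaction. None of the 10 passed, as 0.00502% of all genes did (1 gene), and 3 of the 10 had an unadjusted p under 0.05, where 17.5% of all genes had one. Mmp19 came nearest (-0.84 ± 0.19, adjusted p = 0.0867), then Timp1 (-2.16 ± 0.63, 0.127) and Timp4 (1.99 ± 0.84, 0.253). A pass on HFD and a miss on chow thus do not show that the effects differ. Without WT HFD replicate 1, 7 of the 10 passed the interaction, Timp1, Timp3, Timp4, Mmp2, Mmp3, Mmp13 and Mmp19, where 10.3% of all genes did; without any other single array 0 passed.

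The WT HFD arrays ranked most of the 10 genes alike. Replicate 2 was highest and replicate 1 lowest for 7 genes, Timp1, Timp2, Mmp2, Mmp3, Mmp13, Mmp14 and Mmp19, an order held by 21.7% of all genes. Timp3 and Timp4 had the reverse order (26.3% of all genes), and Mmp9 was highest on replicate 1 and lowest on replicate 3. The 15 macrophage markers had the order of the 7: their mean log2 intensity was 9.95, 11.26 and 10.79 on WT HFD replicates 1, 2 and 3, against 8.75 to 9.30 on the other 9 arrays. The mean of the 10 adipocyte markers was 12.42, 11.82 and 12.24 on the same arrays, against 12.33 to 12.57 on the others. Of the macrophage markers 12 of 15 fell and 3 did not pass for KO against WT on HFD (6.85% of all genes fell), and 13 of 15 rose with HFD in WT (11.8% of all genes rose). The 12 became 9 to 14 with 1 array left out. They became 0 when the fit held the 6 HFD arrays alone, where 4 of all 19937 genes passed. The 13 became 11 to 14 with 1 array left out and 12 with only the WT arrays in the fit. In bulk tissue fewer cells of a type and less RNA per cell cannot be told apart, and the part that a shift in macrophages or adipocytes has in the differences of the 10 genes was not tested.

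**Figure D4:**
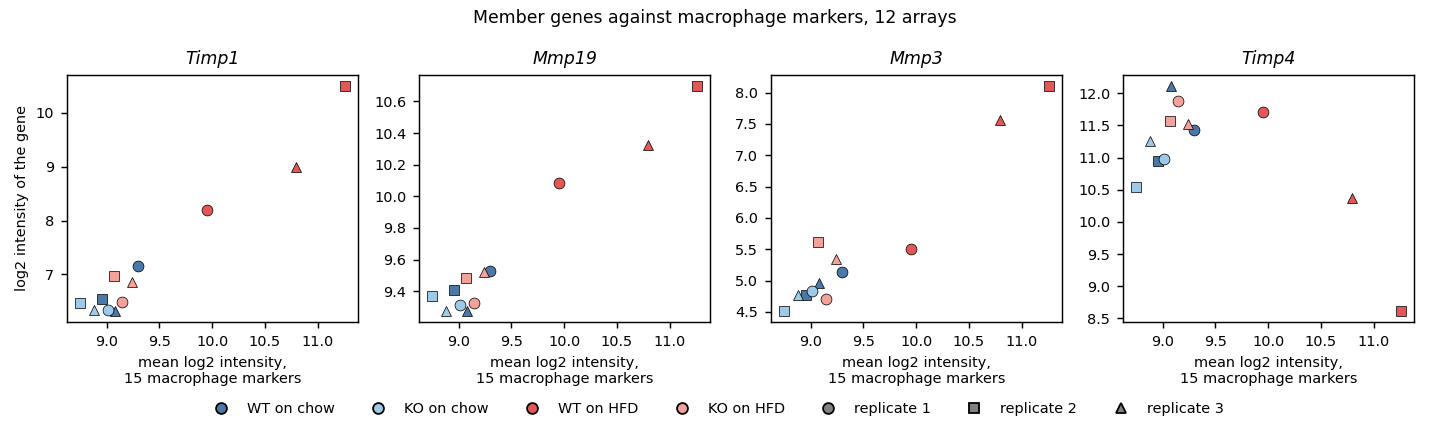
Log2 intensity of Timp1, Mmp19, Mmp3 and Timp4 (y axes) against the mean log2 intensity of 15 macrophage markers (x axis) on the 12 arrays. The 9 arrays outside WT on HFD lie between 8.75 and 9.30 on the x axis; the 3 WT HFD arrays lie to their right, rising for Timp1, Mmp19 and Mmp3 and descending for Timp4.

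The 10 neutrophil markers, relevant to Mmp9, had an array mean of 4.79 to 5.07 in all groups, below the array medians of 5.78 to 5.92. Without detection calls such levels cannot be told from background, so a flat list does not show that neutrophils were unchanged. For KO against WT on HFD S100a8 and Csf3r fell and 8 did not pass. The median difference of the 10 was 0.04. S100a8 kept its call with any 1 array left out (-1.38 to -1.06), and Csf3r lost it without replicate 2 or 3 of WT HFD or replicate 1 of KO HFD (adjusted p up to 0.072). Of 9 stromal progenitor markers Lum and Mfap5 fell in that comparison and 7 did not pass, with array means of 9.66 to 10.28 over all groups. The median difference of the 9 was 0.08, so the 2 do not stand for the list. Lum kept its call with any 1 array left out (-1.62 to -0.99), and Mfap5 lost it without 9 of the 12 arrays (adjusted p up to 0.16). Of 10 adipocyte markers 4 rose, 1 fell and 5 did not pass. With 1 array left out 2 to 6 rose, 2 without replicate 3 of WT HFD or any 1 KO HFD array, and the 1 that fell was lost without replicate 2 or 3 of WT HFD or replicate 1 or 3 of KO HFD. Over all genes 6.85% fell and 6.65% rose. With the 6 HFD arrays alone in the fit 0 markers of these 3 lists passed, where 4 of all 19937 genes did.

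Over the 12 arrays Timp1 had its most similar pattern in Mmp19 (Pearson r = 0.992), the next being Csf2ra, a subunit of the receptor for granulocyte-macrophage colony-stimulating factor (0.991), and Mical2 (0.99). Mmp19 in turn was most like Timp1, the mitotic kinesin Kif11 and the replication gene Mcm3 (0.991 each for the latter). Mmp3 was most like Specc1, Gla, the lysosomal alpha-galactosidase, and the histone gene H2bc8 (0.983 to 0.987). Mmp13 was most like Myh15, Slc9a4 and Sft2d1 (0.979 to 0.987), Mmp2 like Vipas39, Pramel13 and Sft2d1 (0.956 to 0.966), and Mmp14 like Car9, a hypoxia-induced carbonic anhydrase, Pip5k1c and Rpl4 (0.96 to 0.968). Timp4 was most like Fzd4, a Wnt receptor, Ndrg2 and Ptpn11 (0.941 to 0.954), and Timp3 like Plcb4, Tjp1 and Timp4 (0.938 to 0.954). Mmp9 and Timp2 had weaker nearest genes: Rffl, Ubr3 and Tmem231 for Mmp9 (0.898 to 0.922), Nlrp14, Slc11a2 and Prkar1a for Timp2 (0.891 to 0.907). All these values are shaped by the same 3 WT HFD arrays and are descriptions of these 12 arrays among 17164 genes.

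Within the 10 genes, Mmp2 and Mmp14 had r = 0.954, and Timp3 and Timp4 had 0.938. Mmp13 had 0.931 with Mmp2 and 0.93 with Mmp14, while Timp2 had 0.598 and 0.627 with the same genes. Timp1 had 0.949 with Mmp3 and 0.934 with Mmp13, but -0.751 with Timp4 and -0.638 with Timp3. These values too are shaped by the WT HFD arrays.

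Timp1, Timp3 and Timp4 each lie inside a synapsin gene, Syn1, Syn3 and Syn2, in the RefSeq annotation of GRCm38.p6. The row of Syn1, a neuronal vesicle gene, was also highest on the WT HFD arrays, as that of Timp1 was. Syn1 lay at 5.82, 6.13 and 6.21 there and at 5.51 to 5.76 on the other 9 arrays. Its highest array was replicate 3, where that of Timp1 was replicate 2. With HFD in KO Syn1 had -0.06 ± 0.10 and Timp1 0.39 ± 0.45. Syn1 fell by 0.45 ± 0.10 for KO against WT on HFD (adjusted p = 0.0185, lost at up to 0.078 without WT HFD replicate 2 or 3 or KO HFD replicate 1 or 3) and rose by 0.45 ± 0.10 with HFD in WT (0.0101). Syn2, around Timp4, had 0.09 ± 0.21 and -0.06 ± 0.21, and Syn3, around Timp3, had 0.04 ± 0.11 and -0.24 ± 0.11, none of which passed. Whether the probes of a synapsin row read only that gene was not tested.

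Other genes of matrix turnover were read from lists beside the 10. Of 16 other MMP genes, Mmp12, the macrophage elastase, fell for KO against WT on HFD (-4.28 ± 0.47, adjusted p = 0.00316) and 15 did not pass. It lay at 11.33, 13.00 and 12.47 in WT on HFD and 7.58, 7.91 and 8.46 in KO on HFD, so the groups lay far apart. With 1 array left out its difference was -4.75 to -3.91, and it passed each time. Of 26 ADAM and ADAMTS proteases, relatives that shed surface proteins and cut proteoglycans, 5 fell, 1 rose and 20 did not pass. Adam8, a protease of leukocytes, fell by 3.09 ± 0.47 (adjusted p = 0.00513) and Adam12 by 1.68 ± 0.19 (0.00377), while Adamts10 rose by 0.55 ± 0.10 (0.00769), and all 3 kept their calls with any 1 array left out. Over all genes 6.85% fell and 6.65% rose. With the 6 HFD arrays alone in the fit 0 genes of both lists passed, where 4 of all 19937 genes did. The adjusted p was then 0.05 for Mmp12 and 0.054 to 0.059 for Adam8, Adam12 and Adamts10. In WT the diet raised 9 of the 26 and lowered 2, where 11.8% of all genes rose and 12.3% fell. The 9 were 7 to 9 with 1 array left out and the 2 were 1 to 3, with 1 left without any 1 WT chow array or replicate 2 or 3 of WT HFD. In KO the diet raised 3, where 2.8% of all genes rose, and 1 without replicate 3 of KO HFD.

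The plasminogen system activates MMP precursors through the protease plasmin. Of its 7 measured genes 2 fell for KO against WT on HFD, the urokinase receptor Plaur (-1.19 ± 0.25, adjusted p = 0.0126) and the plasminogen receptor Plgrkt (-0.35 ± 0.10, 0.0449), a count of 0 to 3 with 1 array left out. Plaur itself lost its call without KO HFD replicate 1 (0.052). Of 10 other regulators 3 fell, Tfpi2, a protease inhibitor of the matrix (-1.02 ± 0.21), the collagen-cutting cathepsin Ctsk (-2.0 ± 0.42) and the clearance receptor Lrp1 (-0.72 ± 0.17), and Reck, a membrane-anchored MMP inhibitor, rose (0.39 ± 0.11, adjusted p = 0.0379). The count of 3 became 0 without WT HFD replicate 3, and the Reck call was lost without 6 of the 12 arrays (adjusted p up to 0.13). Over all genes 6.85% fell and 6.65% rose in this comparison. With the 6 HFD arrays alone in the fit 0 genes of the plasminogen system and of these regulators passed, where 4 of all 19937 genes did. The call of Lrp1 was also lost without replicate 2 of WT HFD or replicate 2 or 3 of KO HFD (adjusted p up to 0.067), and that of Plgrkt without 9 of the 12 arrays (up to 0.16).

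Of 20 matrix substrates, proteins of the kind that MMPs cut, 12 fell and 8 did not pass for KO against WT on HFD (median -0.51), where 6.85% of all genes fell. They include Col6a3, a chain of collagen VI (-1.34 ± 0.15, adjusted p = 0.00316), the proteoglycan Bgn (-0.83 ± 0.11, 0.00444), Tnc, tenascin C (-1.23 ± 0.23, 0.00821), and Fn1, fibronectin (-0.76 ± 0.15, 0.0108). The count was 6 to 13 with 1 array left out, lowest without replicate 2 of WT HFD or replicate 1 of KO HFD. It was 0 when the fit held the 6 HFD arrays alone, where 4 of all 19937 genes passed. In WT the diet raised 14 of the 20, where 11.8% of all genes rose. This count was 13 to 15 with 1 array left out and 13 with only the WT arrays in the fit. In KO the diet raised 1, Col6a1 (0.57 ± 0.14, adjusted p = 0.0352), where 2.8% of all genes rose, and 0 to 3 genes with 1 array left out. On chow 0 of the genes of all 5 lists passed between genotypes, as 0 of all 19937 genes did.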

How the data were processed

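Total RNA of white adipose tissue was amplified and labelled with biotin for Affymetrix whole transcript arrays, per the labels' protocols, 1 array per sample. The authors deposited 1 table of log2 intensities with 34760 rows and 12 columns. The log base was inferred from the values (2.09 to 14.25). The submitters' processing notes name affy. How background was corrected and probes were summarized and normalized is not given in the sources used. Array medians of 5.78 to 5.92 lie close together. Without detection calls a low value cannot be told from background, and the number of arrays limits the precision.

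Rows were named through the platform annotation: 21640 rows have 1 symbol, 1321 several and 11799 none. Of the rows with 1 symbol, 21553 matched RefSeq (GRCm38.p6) by Entrez identifier. The highest-mean row stood for each of 19937 genes (954 genes have over 1 row; each of the 10 genes has 1). Limma 3.58.1 in R 4.3.3 fitted 4 group means to 12 arrays (8 residual degrees of freedom) with eBayes, two-sided. There was no filter, and the Benjamini-Hochberg adjustment ran over all genes. The fit was run on simulated data with the same spread in every group, which does not bear on the wider spread of WT on HFD. Of the lists, up to 6 genes that passed were open to naming per comparison, the smallest p first. The 3 genes with the highest Pearson r stood for the most similar patterns, passing over predicted genes and small RNAs. The 10 genes, the lists and the tests were chosen with earlier results of these data known. Motifs were sought on both strands of RefSeq promoters. Arrays that share a replicate number did not deviate together (r of -0.41 to 0.38), so the numbers were not taken as pairs.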

Additional observations from a re-analysis of the deposited data

How the results depend on the processing

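Over 21 alternative settings, 969 of 1030 values of the 10 genes stayed on their side of the threshold, 28 lost and 33 gained a pass. Of those that passed in either setting 0 changed sign. Most of these values had not passed to begin with, so the total does not measure how stable the calls were. For KO against WT on HFD the count of 3 was 0 with the compared groups alone in the fit, 9 with array weights and 2 to 9 with 1 array left out. Among genes above the median level it was 2 of the 8 tested, since Mmp3 and Mmp13 lie below that level and were not tested. For HFD against chow in WT the count of 5 was 3 with only the compared groups, 9 with array weights and 2 to 9 with 1 array left out. The interaction count of 0 was 4 with array weights and 0 to 7 with 1 array left out. It stayed 0 for KO against WT on chow and for HFD against chow in KO under every setting run. Over all genes, KO against WT on HFD called 2691 genes, 4 with only the compared groups, 2871 of 9968 genes above the median level, 7648 with array weights and 904 to 3930 with 1 array left out. HFD against chow in KO called 1264, and 585 with only the compared groups, 740 with the replicate block, 2137 with array weights and 62 to 1509 with 1 array left out. HFD against chow in WT called 4802, 3372 with only the compared groups, 9985 with array weights and 3072 to 5285 with 1 array left out. The interaction called 1 gene, and 0 with the replicate block, 85 above the median level, 2819 with array weights and 0 to 2060 with 1 array left out. With the replicate block 3 of the 10 passed for KO against WT on HFD and 4 for HFD against chow in WT, where Mmp9 was lost (adjusted p = 0.061). Quantile normalization also lost it (0.058). The causes were not tested. The interaction needs all 4 groups, so it has no fit with compared groups alone. The settings for the lists and for genes beside the 10 were added after the data had been seen.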

Other observations

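Of the 10 other regulators of metalloproteinases, HFD raised 5 and lowered 2 in WT, and 3 did not pass. Over all genes 11.8% rose and 12.3% fell. With 1 array left out the 5 were 4 to 5 and the 2 were 0 to 2. In KO 2 rose, Thbs1 and Thbs2, and 8 did not pass, where 2.8% of all genes rose and 3.54% fell. Thbs1, which encodes the matricellular protein thrombospondin 1, rose on HFD in WT (2.32 ± 0.32, adjusted p = 0.00121) and in KO (2.37 ± 0.32, 0.00705). Its log2 intensity was 11.02 to 12.21 on the WT HFD arrays and 11.15 to 11.54 on the KO HFD arrays, against 8.65 to 9.64 on the 6 chow arrays. Thbs2 rose as well (1.41 ± 0.27 in WT, adjusted p = 0.00413, and 1.71 ± 0.27 in KO, 0.0117). Neither passed between genotypes on HFD (-0.15 and 0.31).

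Mmp7, which encodes matrilysin, a protease of glandular epithelia, fell on HFD in WT (-3.92 ± 0.77, adjusted p = 0.00474) and in KO (-2.93 ± 0.77, 0.0473), the latter lost without 10 of the 12 arrays. It lay at 8.93 to 10.50 on the 6 chow arrays, at 5.56 to 6.01 in WT on HFD and at 9.17, 5.85 and 5.77 in KO on HFD, where replicate 1 stayed within the chow range. Lcn2, the lipocalin that binds MMP9, had the same split in KO on HFD (11.17, 7.78 and 7.62, against 11.04 to 12.07 on chow). It fell in WT (-3.05 ± 0.78, adjusted p = 0.016, lost at 0.054 without WT chow replicate 2 or WT HFD replicate 3) and had -2.76 ± 0.78 in KO (0.06). The split of replicate 1 was noticed after the values had been seen.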
